A study of Mus musculus with 9 samples.

Results

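Primitive endoderm regulators and matrix genes were examined as a set of 9 named genes, of 30232 gene rows counted in mouse embryonic stem cells with and without Gzf1, a zinc finger protein that binds DNA. The set holds the transcription factors Gata4, Gata6, Sox17 and Sox7, the receptor Pdgfra, the endocytic adaptor Dab2, and the basement membrane chains Lama1, Lamb1 and Col4a1. They were chosen by symbol, and 9 of 9 had a row of counts. The Pdgfra row also carries the symbol Mir7025, a microRNA inside the same gene, so its counts cannot be divided between them.

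The libraries count the 3′ ends of poly(A)+ transcripts (MARS-seq2.0), and the study asked how loss of Gzf1 changes expression. The Gzf1-KO group had 5 libraries. Knockout replicates 1 and 2 came from the RGM line in run2, and knockout replicates 3, 4 and 5 from the V6.5 line in run1. The wild-type group had 4 libraries, with replicates 1 and 2 from RGM in run2, replicate 3 from V6.5 in run1 and replicate 4 from a Cas9-GFP line in run1. All groups were cultured with serum and LIF on a layer of irradiated embryonic fibroblasts, which was depleted before harvest. The labels give no position of the edit and do not say whether libraries of a genotype came from separate clones or cultures. The p-values therefore reflect library-to-library spread alone, and that spread may be technical. RGM and run2 go together, so an effect of that line and an effect of the run cannot be told apart. Within run1 the knockout libraries are all V6.5, while wild-type replicate 4 is Cas9-GFP. Genotype and line are therefore partly mixed there, and a term for run does not remove this.

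The primitive endoderm is the extraembryonic lineage that separates from the epiblast inside the blastocyst and later forms the visceral and parietal endoderm of the yolk sacs. FGF signalling through ERK favours it, Gata6 acts early, and Pdgfra, Sox17, Gata4 and Sox7 follow in turn. Its descendants secrete laminin and type IV collagen into the basement membrane, and embryonic stem cell cultures on serum are known to contain a few cells that turn on these genes.

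Promoter windows from RefSeq (GRCm38.p6) ran from 250 bases before to 50 after an annotated start. A gene left out here may still have a RefSeq window. The windows given are those of 4 of the 9 genes, namely Pdgfra, Dab2, Lamb1 and Col4a1. They were picked by symbol from the promoter windows at hand, and no test result entered that choice. Dab2, Lamb1 and Pdgfra were also the tested genes of the set that differed between lines. Col4a1 starts head to head with its partner Col4a2. Both strands were searched for GATAA, a core bound by GATA factors, and for ACAAT, a core bound by SOX factors; the letters TTATC and ATTGT are the same motifs on the other strand. GATAA occurred in 25.4% and ACAAT in 31.0% of the 32851 promoter windows of the genome. A match is a description of the letters only. Dab2 has a pair of annotated starts 86959 bases apart on the plus strand of chromosome 15, and the upstream window holds 2 matches to the GATA motif, in capitals.
Dab2 upstream start, chr15:6299539-6299838, plus strand: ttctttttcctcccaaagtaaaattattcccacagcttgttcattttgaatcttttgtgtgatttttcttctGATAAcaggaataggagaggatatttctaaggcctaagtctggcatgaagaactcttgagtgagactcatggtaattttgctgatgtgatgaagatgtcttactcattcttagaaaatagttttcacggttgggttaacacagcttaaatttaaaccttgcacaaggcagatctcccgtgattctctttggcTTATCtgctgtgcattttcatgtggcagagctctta
Dab2 downstream start, chr15:6386498-6386797, plus strand: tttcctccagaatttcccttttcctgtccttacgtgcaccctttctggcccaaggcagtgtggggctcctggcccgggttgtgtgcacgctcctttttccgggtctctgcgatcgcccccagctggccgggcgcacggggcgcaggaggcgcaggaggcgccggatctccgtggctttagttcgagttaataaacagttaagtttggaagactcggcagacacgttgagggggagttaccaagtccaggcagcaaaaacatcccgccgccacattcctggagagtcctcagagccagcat
The downstream Dab2 window and the next pair of windows had no match to either motif.
Lamb1, chr12:31265043-31265342, plus strand: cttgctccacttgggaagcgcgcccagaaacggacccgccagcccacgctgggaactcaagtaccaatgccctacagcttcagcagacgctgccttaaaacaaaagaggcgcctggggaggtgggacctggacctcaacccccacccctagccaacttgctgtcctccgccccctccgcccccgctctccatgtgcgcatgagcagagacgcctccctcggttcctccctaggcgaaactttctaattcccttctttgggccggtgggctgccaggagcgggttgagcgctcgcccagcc
Pdgfra, chr5:75152001-75152300, plus strand: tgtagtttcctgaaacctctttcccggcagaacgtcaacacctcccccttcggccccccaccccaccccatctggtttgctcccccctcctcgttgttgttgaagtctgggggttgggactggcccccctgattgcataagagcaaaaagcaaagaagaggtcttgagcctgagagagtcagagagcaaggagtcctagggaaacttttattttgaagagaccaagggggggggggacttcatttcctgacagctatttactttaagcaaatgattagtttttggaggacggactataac
The Col4a1 window also had no match. Its last 78 bases, in capitals, are shared with the window of Col4a2 on the opposite strand, and the starts of the genes lie 21 bases apart.
Col4a1, chr8:11312777-11313076, minus strand: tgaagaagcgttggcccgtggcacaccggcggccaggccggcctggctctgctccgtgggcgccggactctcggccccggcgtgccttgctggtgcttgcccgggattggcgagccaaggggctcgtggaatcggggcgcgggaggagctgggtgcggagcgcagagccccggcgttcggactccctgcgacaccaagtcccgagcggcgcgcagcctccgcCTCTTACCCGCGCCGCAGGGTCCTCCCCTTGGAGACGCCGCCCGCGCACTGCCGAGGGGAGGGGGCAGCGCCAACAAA

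Library totals were 2568489 to 3704162 counts in run2 and 4872127 to 7072697 counts in run1. A count of 3, taken as the floor, was worth 0.809 to 1.18 CPM (counts scaled to library size) in run2 libraries and 0.412 to 0.627 CPM in run1 libraries. Intervals and floors given here cover counting error only. The targeted gene itself, Gzf1, had 17 and 36 counts in RGM knockout libraries, against 106 and 76 counts in RGM wild-type libraries. In run1 Gzf1 had 12, 45 and 32 counts in knockout libraries, against 59 and 99 counts in wild-type libraries. As CPM the means were 7.19 ± 4.78 in knockout and 21.3 ± 10.2 in wild-type libraries (SD, n = 5 and 4). The Gzf1 ranges did not overlap in RGM; in run1 the CPM of knockout replicate 4 (9.40) exceeded that of wild-type replicate 3 (8.11). Its log2 fold change was -1.45 (SE 0.42), with an adjusted p of 0.9998 in edgeR's quasi-likelihood test with Benjamini-Hochberg adjustment. Without the low-count filter it was -1.46, with an adjusted p of 5.0e-05. A 3′ tag need not report an edit elsewhere in the gene, so this level is not a check of the deletion. Markers of pluripotent cells were present in all 9 libraries, with Nanog between 552 and 1080 CPM.

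No tested gene of the set passed the test for the knockout. Of the 9 genes, 6 passed the filter on low counts (Gata4, Pdgfra, Dab2, Lama1, Lamb1 and Col4a1), and 3 did not (Gata6, Sox17 and Sox7). Among the 6, 0 passed an adjusted p of 0.05 in edgeR's quasi-likelihood test of knockout against wild type, 0 had an unadjusted p under 0.05 and 0 were called by DESeq2. The share of all 12645 tested genes called was 0.0316%. The median log2 fold change was 0.15 over the 6 genes and 0.01 over all tested genes. CPM ranges of the knockout and wild-type libraries overlapped for 9 of 9 genes. Ranges that do not overlap occurred for 0.443% of tested genes. Within RGM 0 of the 6 genes were called (0% of all tested genes, with 2 called by DESeq2 and 104 at an unadjusted p under 0.05 over all of them), with 0 by DESeq2 and 0 at an unadjusted p under 0.05. Within run1 0 were called (0.0158% of all tested genes), with 0 by DESeq2 and 3 of the 6 at an unadjusted p under 0.05, as were 485 of all 12645 (3.84%). Of the other 143 listed genes (partners, pathway genes and markers), 112 were tested, 0 were called for knockout by edgeR over all libraries, 0 by DESeq2 and 4 (3.57%) had an unadjusted p under 0.05, as did 293 of all tested genes (2.32%).

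The lines differed more. In RGM libraries Dab2, Lamb1 and Pdgfra were higher than in the V6.5 and Cas9-GFP libraries of run1, by 9.08-fold, 1.90-fold and 2.27-fold. Thus 3 of the 6 tested genes were called higher and 0 lower, where 22.2% of all 12645 tested genes were called higher and 23.1% lower, 45.3% in all. The median log2 fold change was 0.66 over the 6 genes and -0.02 over all tested genes. Sox17 and Sox7, too low for the filter, were lower in RGM in the fit without that filter. Dropping the filter also changed the errors of genes that pass it, the SE of the Gzf1 log2 fold change being 0.26 without the filter and 0.42 with it. The CPM ranges of RGM and run1 did not overlap for 4 of the 9 genes, with Dab2 and Lamb1 higher and Sox17 and Sox7 lower in RGM. Ranges were apart for 38.6% of all tested genes (19.4% higher, 19.2% lower), which do not include Sox17 and Sox7. Both had 1 or 2 counts in each RGM library. For Sox7 the highest RGM value was 0.641 CPM (2 counts) and the lowest run1 value 0.820 CPM (5 counts). In bulk RNA, fewer cells of a type and less RNA per cell cannot be told apart.

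**Figure D1:**
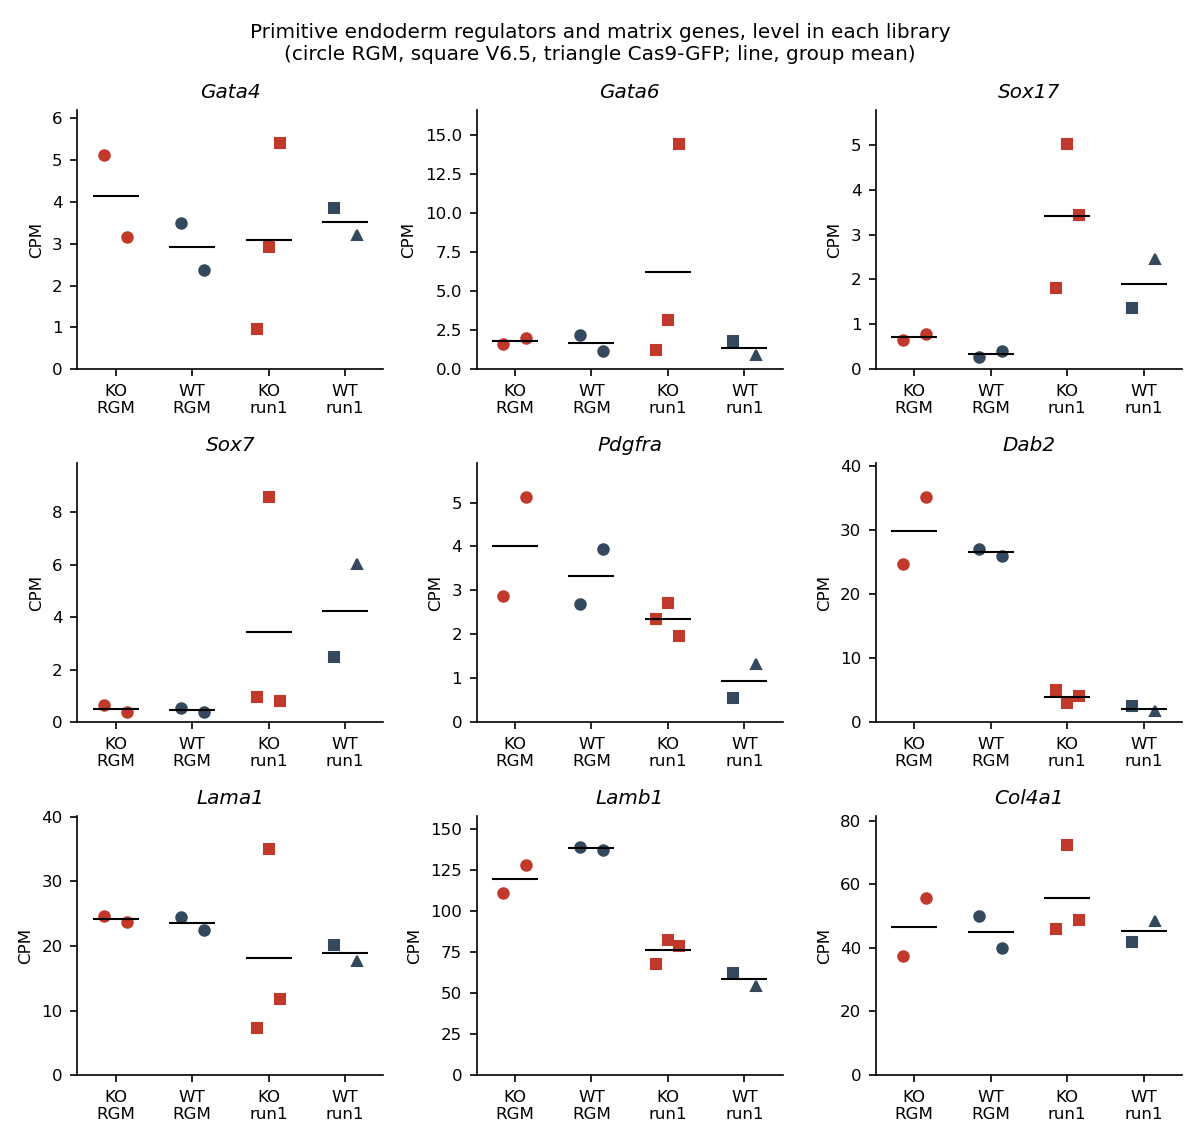
Level of each of the 9 genes in each library, in CPM on a linear axis from 0, with knockout (KO) libraries in red left of wild-type (WT) libraries in dark grey, first RGM and then run1. Horizontal lines are group means. Dab2 lay between 24.7 and 35.1 CPM in RGM libraries and between 1.70 and 4.98 CPM in run1 libraries, and Gata6 reached 14.4 CPM in 1 knockout library.

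Among the transcription factors, Gata4 was counted at low levels and passed the test neither between genotypes nor between lines. Gata4 (chromosome 14, 63198922 to 63271692, minus strand, GRCm38) is a zinc finger factor of the primitive endoderm and its descendants. It had 5.13 and 3.16 CPM in RGM knockout libraries and 3.50 and 2.37 CPM in RGM wild-type libraries. In run1 Gata4 had 0.968, 2.92 and 5.41 CPM in knockout libraries and 3.85 and 3.20 CPM in wild-type libraries. The lowest and the highest value both belonged to V6.5 knockout libraries, replicates 3 and 5, and enclosed all others. Its log2 fold change was 0.06 (SE 0.44) for knockout against wild type and 0.14 (SE 0.44) for RGM against run1, with adjusted p of 0.9998 and 0.83 in edgeR's quasi-likelihood test. These 9 values rest on 6 to 33 counts each.

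Gata6, the factor that opens the primitive endoderm programme, stood out in 1 library. It had 5 and 5 counts in RGM knockout libraries (1.60 and 1.97 CPM) and 8 and 3 counts in RGM wild-type libraries (2.16 and 1.18 CPM). Run1 gave it 9, 15 and 88 counts in knockout libraries (1.24, 3.13 and 14.4 CPM) and 13 and 5 counts in wild-type libraries (1.79 and 0.942 CPM). Knockout replicate 5 held 88 of the 122 knockout counts, and the other 8 libraries lay between 0.942 and 3.13 CPM. In the fit without the low-count filter the log2 fold change of knockout against wild type was 1.41 (SE 0.44), with an adjusted p of 0.34 in edgeR's quasi-likelihood test and 0.9998 in DESeq2, and it was 0.34 (SE 0.50) without knockout replicate 5. Leaving out knockout replicate 3 or 4 in place of it gave 1.72 and 1.60, with adjusted p of 0.031 and 0.029. Within run1 it was 2.14 (SE 0.56, adjusted p 0.055) with knockout replicate 5 and 0.59 (SE 0.67) without it. Within RGM it was 0.00 (SE 0.92). For RGM against run1 Gata6 had an unfiltered log2 fold change of -0.97 (SE 0.45, adjusted p 0.089 in edgeR), and -0.02 without knockout replicate 5. It passed the threshold in 6 of 14 alternatives, among them knockout libraries only (-1.86, adjusted p 0.016) and the fits without knockout replicate 3 or 4 or wild-type replicate 1 or 4, and was 0.28 (adjusted p 0.87) with wild-type libraries only. The exact two-sided permutation test of genotype within runs gave p = 0.32 for Gata6, over 60 arrangements whose smallest possible p is 0.017.

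The same library, knockout replicate 5, also had the highest summed level of 8 trophoblast markers, 148 CPM, against 46.6 to 108 CPM in the other knockout libraries and 40.5 to 92.4 CPM in wild-type libraries. None of the 5 tested markers of that list was called for knockout against wild type in edgeR, and their part in the Gata6 value was not tested. Gata6 overlaps the antisense transcript 1010001N08Rik at its start, and how strand was handled is unknown here.

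Sox17 (chromosome 1, 4490931 to 4497354, minus strand), an HMG box factor of early endoderm, was near the floor in RGM and clearly counted in run1. It had 2 and 2 counts in RGM knockout libraries (0.641 and 0.789 CPM) and 1 and 1 counts in RGM wild-type libraries (0.270 and 0.395 CPM). Run1 gave it 13, 24 and 21 counts in knockout libraries (1.80, 5.01 and 3.44 CPM) and 10 and 13 counts in wild-type libraries (1.37 and 2.45 CPM). Every RGM library lay under the 3-count floor and below every run1 library, and within run1 knockout replicates 4 and 5 were the highest. Pooled over libraries, 6 RGM counts stood against 81 run1 counts, a ratio of 0.191 after scaling by library size (95% exact interval 0.0681 to 0.434). Without the filter the log2 fold change of RGM against run1 was -2.34 (SE 0.61), with an adjusted p of 0.00078 in edgeR's quasi-likelihood test and 0.0094 in DESeq2. The exact two-sided permutation of run within genotypes gave p = 0.033. Between wild-type libraries alone the log2 fold change was -2.47, with an adjusted p of 0.066. Knockout minus wild type, the unfiltered log2 fold change was 0.87 (SE 0.53), with an adjusted p of 0.9987 in edgeR and an exact permutation p of 0.10. Sox17 overlaps Gm37587, annotated on the opposite strand.

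Sox7 (chromosome 14, 63943673 to 63950732, plus strand), the related factor that comes later in the lineage, followed the same division between lines with a wider spread. It had 2 and 1 counts in RGM knockout libraries (0.641 and 0.395 CPM) and 2 and 1 counts in RGM wild-type libraries (0.539 and 0.395 CPM). Among run1 libraries it had 7, 41 and 5 counts in knockout libraries (0.968, 8.56 and 0.820 CPM) and 18 and 32 counts in wild-type libraries (2.47 and 6.03 CPM). The RGM libraries were again all below the run1 libraries, and the run1 values were led by the libraries labelled replicate 4, 1 V6.5 knockout and 1 Cas9-GFP wild type. Pooled, 6 RGM counts stood against 103 run1 counts, a scaled ratio of 0.150 (95% exact interval 0.0539 to 0.339). The unfiltered log2 fold change of RGM against run1 was -2.86 (SE 0.58, adjusted p 6.9e-06 in edgeR's quasi-likelihood test and 0.0046 in DESeq2), and -1.62 (adjusted p 0.094) without both replicate 4 libraries. The exact two-sided permutation of run within genotypes gave p = 0.067. Between genotypes, knockout minus wild type, the unfiltered log2 fold change was -0.27 (SE 0.48), with an adjusted p of 0.9987 in edgeR.

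Other factors linked to the primitive endoderm did not share 1 direction between lines. Of 7 listed, 4 were tested, of which 1 was higher and 2 lower in RGM than in run1, and 0 were called for knockout against wild type. Creb3l2, a transcription factor of the secretory pathway, was higher (1.25 on the log2 scale, SE 0.25, edgeR adjusted p 0.0011). Hnf4a, a nuclear receptor of visceral endoderm, was lower (-1.65, SE 0.44, adjusted p 0.0073), as was Tbx3, a T-box factor (-1.06, SE 0.23, adjusted p 0.0025). Sall4 had -0.36 (SE 0.18, adjusted p 0.12).

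Pdgfra, the receptor for PDGF ligands that marks primitive endoderm cells, was higher in RGM, with counts between 4 and 17 per library. Pdgfra (chromosome 5, 75152292 to 75198215, plus strand) had 2.88 and 5.13 CPM in RGM knockout libraries and 2.70 and 3.95 CPM in RGM wild-type libraries. Run1 levels of Pdgfra were 2.35, 2.71 and 1.97 CPM in knockout libraries and 0.550 and 1.32 CPM in wild-type libraries. The line ranges touched, since knockout replicate 4 of run1 lay just above the lowest RGM library, and the wild-type libraries of run1 were the lowest of all. The log2 fold change of RGM against run1 was 1.18 (SE 0.40, adjusted p 0.026 in edgeR's quasi-likelihood test), and the exact permutation of run within genotypes gave p = 0.017, the smallest it can give. That call was lost without knockout replicate 2 (adjusted p 0.086), wild-type replicate 1 (0.060), wild-type replicate 2 (0.086) or wild-type replicate 3 (0.076), and between knockout libraries alone (log2 fold change 0.76, adjusted p 0.30).

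For knockout against wild type Pdgfra had the largest fitted difference among the 6 tested genes, a log2 fold change of 0.82 (SE 0.41), with an unadjusted p of 0.062 and an adjusted p of 0.9998 in edgeR. It was 0.27 (SE 0.57) within RGM and 1.35 (SE 0.56, unadjusted p 0.031, adjusted p 0.9995) within run1, where all 3 knockout libraries lay above both wild-type libraries. Knockout over wild type, 64 counts stood against 31, a scaled ratio of 1.63 (95% exact interval 1.05 to 2.60). Of the PDGF ligands and the second receptor, 4 of 5 were tested. Pdgfrb and Pdgfb were higher in RGM (0.90 on the log2 scale, SE 0.21, edgeR adjusted p 0.0027, and 1.05, SE 0.28, adjusted p 0.0066). Pdgfa, the main ligand of Pdgfra, had -0.49 (SE 0.23, adjusted p 0.093), and Pdgfc had -0.25 (SE 0.22, adjusted p 0.38). No gene of that list was called for knockout against wild type.

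Dab2 had the largest fitted fold change between lines among the 9 genes. Dab2 (chromosome 15, 6299788 to 6440712, plus strand) is an adaptor that links receptors of the LDL receptor family to clathrin and is needed in visceral endoderm. It had 24.7 and 35.1 CPM in RGM knockout libraries and 27.0 and 26.0 CPM in RGM wild-type libraries. Run1 levels of Dab2 were 4.98, 2.92 and 4.10 CPM in knockout libraries and 2.47 and 1.70 CPM in wild-type libraries. The lowest RGM library was 4.96 times the highest run1 library. RGM libraries averaged 28.2 ± 4.71 CPM and run1 libraries 3.23 ± 1.31 CPM (SD, n = 4 and 5). The log2 fold change was 3.18 (SE 0.26, adjusted p 8.1e-07 in edgeR's quasi-likelihood test), the rank by p being 62 among 12645 genes, and the exact permutation of run within genotypes gave p = 0.017. It was 2.87 between knockout libraries alone and 3.63 between wild-type libraries alone. The upstream Dab2 promoter window printed above is the one with GATA matches, but the counts do not say which start was used.

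Between genotypes Dab2 averaged 14.4 ± 14.7 CPM in knockout libraries and 14.3 ± 14.1 CPM in wild-type libraries (SD, n = 5 and 4). With run as a term the log2 fold change was 0.49 (SE 0.26, unadjusted p 0.075, adjusted p 0.9998 in edgeR). It was 0.17 (SE 0.33) within RGM and 0.93 (SE 0.38, unadjusted p 0.029, adjusted p 0.9995) within run1, where the 3 knockout libraries lay above both wild-type libraries. The difference between those effects had an adjusted p of 1.00 in edgeR. Dab2 overlaps the antisense transcript Gm16311 and the pseudogene Gm18888. Among 5 genes for endocytic adaptors that work with Dab2, Myo6, a myosin motor bound by Dab2, was higher in RGM (log2 fold change 1.70, SE 0.24, adjusted p 9.2e-05) and Ap2a1, a clathrin adaptor subunit, was lower (-0.58, SE 0.16, adjusted p 0.0086). The other 3 were not called.

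**Figure D2:**
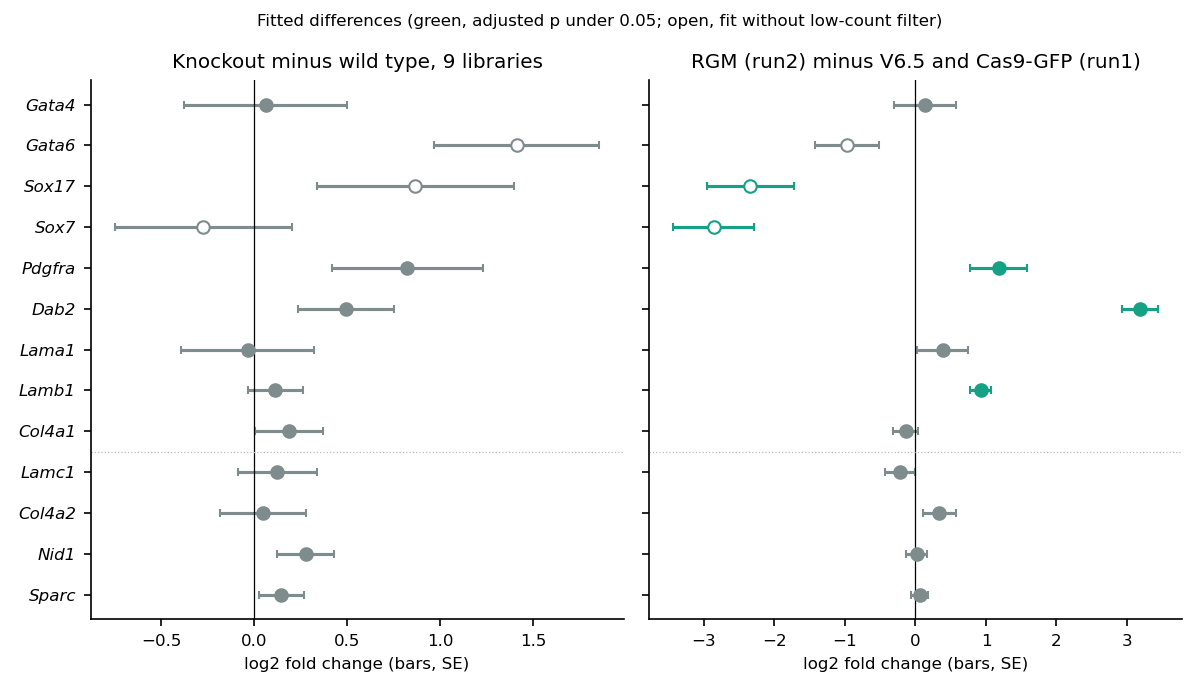
Fitted log2 fold change with SE bars for the 9 genes and, under the dotted line, 4 matrix partners, knockout minus wild type on the left and RGM minus run1 on the right, on different horizontal scales. Green marks an adjusted p under 0.05 and open circles the fit without the low-count filter, and Dab2 at 3.18 lies farthest to the right between lines while no gene is green between genotypes.

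Of the 3 matrix chains, 1 passed the test between lines and 0 between genotypes. Lamb1 (chromosome 12, 31265234 to 31329644, plus strand), the beta1 chain of laminin, was higher in RGM. It had 111 and 128 CPM in RGM knockout libraries and 139 and 137 CPM in RGM wild-type libraries. In run1 it had 67.7, 82.1 and 78.3 CPM in knockout libraries and 62.2 and 54.3 CPM in wild-type libraries. All 4 RGM libraries exceeded all 5 run1 libraries, and the genotype order was opposite in the lines, with knockout below wild type in RGM and above it in run1. RGM libraries averaged 129 ± 12.7 CPM and run1 libraries 68.9 ± 11.4 CPM (SD, n = 4 and 5). The log2 fold change of RGM against run1 was 0.92 (SE 0.15, adjusted p 0.00020 in edgeR's quasi-likelihood test), with an exact permutation p of 0.017.

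For knockout against wild type over all libraries the log2 fold change of Lamb1 was 0.11 (SE 0.15), and edgeR gave an adjusted p of 0.9998. It was -0.21 (SE 0.19, adjusted p 1.00) within RGM and 0.38 (SE 0.17, unadjusted p 0.048, adjusted p 0.9995) within run1. The difference between these effects was -0.59 (SE 0.26, unadjusted p 0.041), with an adjusted p of 1.00 in edgeR, and 0 of 12645 genes (0%) were called in that test, with 0 by DESeq2 and 182 at an unadjusted p under 0.05. Ranges of knockout and wild type that do not overlap occurred for 2 of the 9 genes within RGM (Sox17 and Lamb1) and 3 within run1 (Pdgfra, Dab2 and Lamb1), where 34.6% and 13.5% of all tested genes had them. The 3 genes within run1 were all higher in knockout, where 6.42% of tested genes were higher without overlap and 7.10% lower. Of the run1 wild-type libraries only replicate 3 is V6.5, the line of the run1 knockout libraries. Of the pair within RGM, Lamb1 was lower in knockout and Sox17 higher. The Sox17 order rests on 2 and 2 counts against 1 and 1, all under the 3-count floor. Sox17 is also not among the tested genes that these shares cover.

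Lama1 (chromosome 17, 67697259 to 67822647, plus strand), the alpha1 chain that joins Lamb1 and Lamc1 in laminin-111, was even across RGM and uneven across run1. It had 24.7 and 23.7 CPM in RGM knockout libraries and 24.5 and 22.5 CPM in RGM wild-type libraries. In run1 it had 7.33, 35.1 and 11.8 CPM in knockout libraries and 20.1 and 17.7 CPM in wild-type libraries. The coefficient of variation was 4.19% over the 4 RGM libraries and 57.5% over the 5 run1 libraries. Knockout replicate 4 held the highest value of all and knockout replicates 3 and 5 the lowest. The log2 fold change was -0.04 (SE 0.36, adjusted p 0.9998) for knockout against wild type and 0.39 (SE 0.36, adjusted p 0.41 in edgeR) for RGM against run1. Without knockout replicate 4 the line difference was 0.81 with an adjusted p of 0.013.

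Col4a1 (chromosome 8, 11198423 to 11312826, minus strand), the alpha1 chain of type IV collagen, did not pass the test in either comparison. It had 37.5 and 55.6 CPM in RGM knockout libraries and 50.1 and 39.9 CPM in RGM wild-type libraries. In run1 it had 46.0, 72.3 and 48.8 CPM in knockout libraries and 41.8 and 48.6 CPM in wild-type libraries. The groups overlapped throughout, and knockout replicate 4 was the highest. The log2 fold change was 0.19 (SE 0.18, adjusted p 0.9998) for knockout against wild type and -0.14 (SE 0.18, adjusted p 0.56 in edgeR) for RGM against run1. Col4a1 overlaps Col4a2 on the other strand at their shared start, and the antisense transcript Gm15418 at its 3′ end, where tags of this method fall.

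Most partners with which these chains assemble did not pass the test between lines. Of 10 basement membrane partners tested, 1 was higher in RGM and 0 lower, with a median log2 fold change of 0.19, and 0 were called for knockout against wild type. Nid2, one of the nidogens that bridge laminin and collagen IV, was the gene called, at 0.99 (SE 0.17), with an adjusted p of 0.00036 from edgeR. Lamc1, the gamma1 laminin chain, had -0.22 (SE 0.21, adjusted p 0.42), Col4a2 had 0.34 (SE 0.23, adjusted p 0.25), Nid1 had 0.02 (SE 0.15, adjusted p 0.94) and Sparc, a collagen-binding matrix protein, had 0.06 (SE 0.12, adjusted p 0.72). Between genotypes, knockout minus wild type, the same 4 had 0.13 (SE 0.21), 0.05 (SE 0.23), 0.28 (SE 0.15) and 0.15 (SE 0.12), each with an adjusted p of 0.9998.

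Col4a2 was at 20.5 and 37.1 CPM in RGM knockout libraries and 37.2 and 29.2 CPM in RGM wild-type libraries. Run1 levels of Col4a2 were 19.6, 36.5 and 23.4 CPM in knockout libraries and 22.3 and 21.9 CPM in wild-type libraries. Within run1 the highest library was knockout replicate 4, as for Col4a1, Lama1, Sox7 and Sox17. Knockout replicate 4 also had the highest summed level among run1 libraries of parietal endoderm products (63.9 CPM, the others 42.4 to 52.0 CPM). The same held for the other primitive endoderm factors (580 CPM, the others 335 to 540 CPM) and the PDGF list (310 CPM, the others 145 to 259 CPM). Tbx3 (278 CPM) and Sall4 (287 CPM) gave most of that 580 CPM, and Pdgfa (260 CPM) most of that 310 CPM. Visceral endoderm products were highest in the Cas9-GFP library (32.4 CPM, 30.1 CPM in knockout replicate 4). Within run1 Pdgfra and Lamb1 also peaked in knockout replicate 4, Gata4 and Gata6 in knockout replicate 5 and Dab2 in knockout replicate 3.

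Among the enzymes and carriers that fold and export collagen, 8 were tested, 1 was higher in RGM and 0 lower. Plod1, a lysyl hydroxylase, was at 0.49 (SE 0.17, adjusted p 0.034 in edgeR), while P4hb, a subunit of prolyl hydroxylase, had -0.14 (SE 0.12, adjusted p 0.38) and Serpinh1, the collagen chaperone, -0.36 (SE 0.17, adjusted p 0.096). Of 6 matrix receptors tested, 0 were higher and 3 lower in RGM. Itga3 and Itga6, integrin chains that bind laminin, had log2 fold changes of -1.76 (SE 0.21, adjusted p 1.8e-05) and -0.59 (SE 0.13, adjusted p 0.0016), and Dag1, dystroglycan, had -0.39 (SE 0.14, adjusted p 0.035). Of 15 relatives of the set in the GATA, SOX, laminin and collagen IV families, 7 were tested, 3 were higher and 2 lower. Col4a5 and Lama4 were higher (log2 fold change 2.12, SE 0.31, adjusted p 9.7e-05, and 1.91, SE 0.28, adjusted p 0.00010), as was Gata2 (1.12, SE 0.33, adjusted p 0.013), and Lama3 was lower (-2.28, SE 0.34, adjusted p 0.00012). Col4a5 passed the low-count filter through its RGM libraries alone (5.53 to 7.89 CPM, against 1.13 to 1.67 CPM in run1). None of these 3 lists had a gene called for knockout against wild type.

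**Figure D3:**
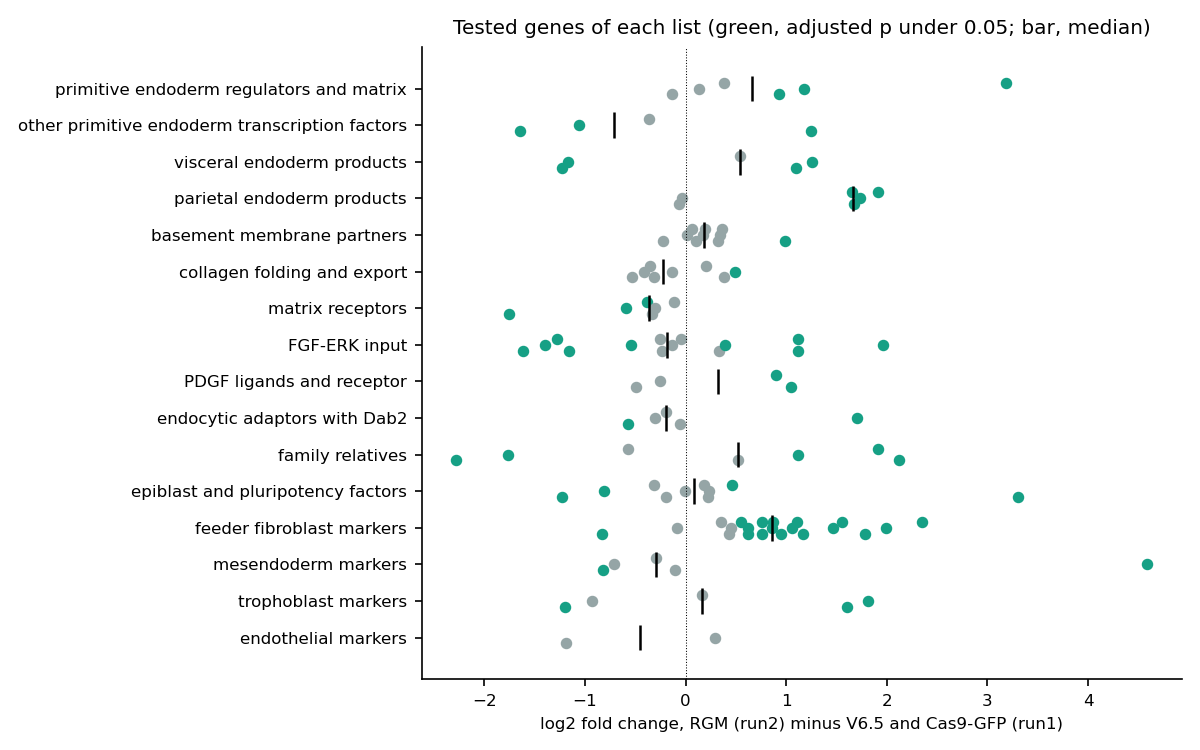
Log2 fold change of RGM minus run1 for each tested gene of each list, 1 dot per gene, green where the adjusted p was under 0.05 and grey otherwise, with black bars at list medians. The median was 0.86 for feeder fibroblast markers and 1.70 for parietal endoderm products, against 0.66 for the 6 tested regulators and matrix genes.

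Products of the lineages that descend from primitive endoderm differed between lines in unlike ways. Of 6 parietal endoderm products, all tested, 4 were higher in RGM and 0 lower, with a median log2 fold change of 1.70. Snai1 (1.91, SE 0.20, adjusted p 5.8e-06), Thbd (1.73, SE 0.21, adjusted p 2.0e-05) and Plat (1.65, SE 0.25, adjusted p 0.00013 in edgeR) were among them, and each is also expressed outside the endoderm. Their summed level was 99.3 to 128 CPM in RGM libraries and 42.4 to 63.9 CPM in run1 libraries. Of 13 visceral endoderm products, 5 were tested, 2 were higher and 2 lower. Vil1, an actin bundler, was higher (1.26, SE 0.40, adjusted p 0.018), and Rbp4, a retinol carrier, and Soat2, which esterifies cholesterol, were lower (-1.23, SE 0.27, adjusted p 0.0024, and -1.17, SE 0.32, adjusted p 0.0083). The transthyretin gene Ttr, a defining visceral product, had 0 counts in all 9 libraries, and 2 to 6 of the 13 genes were at 0 in each library. Knockout against wild type had 0 calls in both lists.

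The signalling list upstream of the lineage also differed between lines in both directions. Of 14 genes of FGF and ERK signalling, all tested, 4 were higher and 5 lower in RGM, with a median log2 fold change of -0.18, and 0 were called for knockout against wild type. Fgfr2, the receptor that marks primitive endoderm, was higher (1.96, SE 0.21, adjusted p 9.1e-06 in edgeR). Fgf4, the ligand made by epiblast cells, and Etv5, a target of the pathway, were lower (-1.28, SE 0.15, adjusted p 2.2e-05, and -1.40, SE 0.17, adjusted p 2.2e-05). Map2k2, a MEK kinase of the cascade, was lower (-0.54, SE 0.12, adjusted p 0.0020). Of the same list Dusp6 and Spry2 had higher means in RGM (58.5 and 82 CPM) than in run1 (27 and 37.8 CPM). Etv4 and Spry4 had lower means in RGM (63.8 and 29.5 CPM) than in run1 (145 and 91.6 CPM). Of 10 pluripotency factors tested, 2 were higher and 2 lower, led by Zfp42 (3.30, SE 0.13, adjusted p 9.6e-10), with Klf4 at -1.23 (SE 0.15, adjusted p 2.8e-05), Prdm14 at -0.81 (SE 0.21, adjusted p 0.0067) and Nanog at -0.32 (SE 0.14, adjusted p 0.080).

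Feeder fibroblast markers moved with the line, in the same direction as Dab2, Lamb1 and Pdgfra. Fibroblasts also express Pdgfra, Dab2, Lamb1 and Col4a1. Of 23 markers, 21 were tested, 16 were higher and 1 lower in RGM, with a median log2 fold change of 0.86. Lox, a collagen cross-linking enzyme, had 2.35 (SE 0.19, adjusted p 7.6e-07 in edgeR), Fn1, fibronectin, 1.06 (SE 0.12, adjusted p 1.5e-05), and Col6a1 1.46 (SE 0.17, adjusted p 1.7e-05). The summed level of the 23 markers was 2790 and 4840 CPM in RGM knockout libraries and 3750 and 3160 CPM in RGM wild-type libraries. In run1 it was 2510, 1850 and 1680 CPM in knockout libraries and 2090 and 1580 CPM in wild-type libraries. No marker was at 0 in an RGM library, and 0 to 2 were at 0 in each run1 library. Knockout replicate 2 of RGM had the highest sum, and it also had the highest Dab2, Pdgfra and RGM Col4a1, but its Lamb1 (128 CPM) was below that of both RGM wild-type libraries (139 and 137 CPM). The part of feeder cells in the line differences was not tested. Between genotypes 0 of the 21 markers were called, and the median was 0.16.

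**Figure D4:**
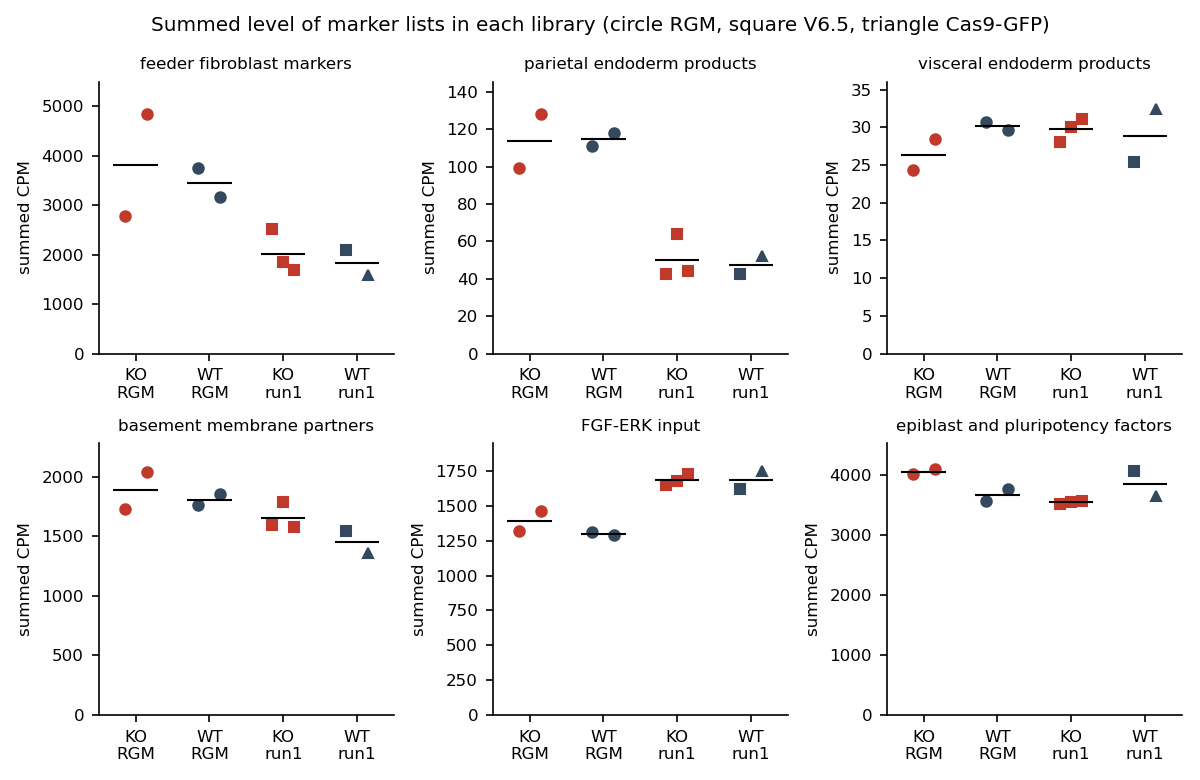
Summed CPM of 6 marker lists in each library, on linear axes from 0, with knockout (KO, red) left of wild type (WT, dark grey) within RGM and within run1, and lines at group means. The RGM libraries lie above the run1 libraries for feeder fibroblast markers (2790 to 4840 against 1580 to 2510 CPM) and parietal endoderm products (99.3 to 128 against 42.4 to 63.9 CPM), and below them for FGF and ERK genes.

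Of 12 tested markers of trophoblast, mesendoderm and endothelium, 5 (41.7%) were called between lines, against 45.3% of all tested genes. Of 8 trophoblast markers, 5 were tested, with 2 higher in RGM (Krt18 at 1.81, SE 0.33, adjusted p 0.00072, and Krt8 at 1.60, SE 0.32, adjusted p 0.0011 in edgeR) and 1 lower (Krt19 at -1.20, SE 0.35, adjusted p 0.013). Of 8 mesendoderm markers, 5 were tested, 1 was higher (the gene T) and 1 lower (Eomes at -0.82, SE 0.28, adjusted p 0.028). T averaged 5.38 CPM in RGM libraries (64 counts in all) and 0.204 CPM in run1 libraries (6 counts in all). It passed the low-count filter through its RGM libraries alone. Of 5 endothelial markers, 2 were tested and 0 were called in either direction. No gene of these 3 lists was called for knockout against wild type.

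Among single libraries, the Cas9-GFP wild-type library and the V6.5 wild-type library of run1 could be set side by side without a test, since each line has 1 wild-type library there. The Cas9-GFP library had 6.03 CPM of Sox7, 2.45 CPM of Sox17 and 1.70 CPM of Dab2, and the V6.5 library had 2.47, 1.37 and 2.47 CPM. Their Lamb1 levels were 54.3 and 62.2 CPM and their Lama1 levels 17.7 and 20.1 CPM. Over the 4 RGM libraries the highest value of a gene of the set was 1.1 (Lama1) to 2.93 (Sox17) times its lowest, and over the 5 V6.5 and Cas9-GFP libraries 1.51 (Lamb1) to 15.3 (Gata6) times. The run1 ratio of Gata6 was 3.32 without knockout replicate 5, and the RGM ratios of Sox17 and Sox7 compare libraries of 1 and 2 counts, under the floor. Outside the set, the genes whose log2 CPM, centred within run, was most like the mean of the 6 tested genes over the 9 libraries were Igf2 (Pearson r 0.951), Rgl2 (0.949), Traf7 (0.943), Tdrd7 (0.920) and AK205379 (0.920). These were the highest of all tested genes and are given as a description, with no test.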

How the data were processed

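The authors deposited 1 table of raw counts per gene symbol for 9 libraries of embryonic stem cells. Per the submitters' processing notes the work used STAR, DESeq2 and mm10. Not given in the sources used here are the counter, how strand was handled, and whether reads or molecules were counted. Spike-in rows (92, with 1 count in all) entered neither library sizes nor tests, and 1858 rows name several symbols merged into 1 value.

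Groups, lines and runs were taken from the labels. The filter filterByExpr, with genotype as group and 10 as its minimum count, left 12645 genes. TMM scaling and the robust quasi-likelihood F test of edgeR (version 4.0.16, under R 4.3.3) followed, with genotype and run as terms. Benjamini-Hochberg adjustment ran over all tested genes at a threshold of 0.05, and every p without another name is from edgeR. SE values were derived from F, as the size of the log2 fold change over the root of F. Effects within a run came from a fit with 4 groups. Gata6, Sox17 and Sox7 were fitted without the filter, an alternative chosen after seeing the data, as was the permutation of run labels. Exact permutation tests used log2(CPM + 1). The alternatives included DESeq2 1.42.0, RLE factors, other filters and leaving out libraries. The fits were checked on simulated data. There 2-fold changes between genotypes were recovered in 63.9% of cases over all libraries, 18.2% within RGM and 30.3% within run1.

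The 9 genes and all lists were chosen with earlier results of these data known. The genes named were the 9, Gzf1, Lamc1, Col4a2, Nid1, Sparc, up to 3 genes of each list past the threshold, the 2 of highest CPM in a list, and the 5 most like the set. Ttr, Dusp6, Spry2, Etv4 and Spry4 were named after their values were seen. The GENCODE annotation of GRCm38 gave gene positions, and RefSeq (GRCm38.p6) the promoter sequences.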

Additional observations from a re-analysis of the deposited data

Results flagged for a closer look

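In groups of 4 to 5 libraries, the library farthest from the others was marked where its gap to the nearest one was large beside the whole range of the group. Chance marks about 1 in 20 groups in this way, and here 7 of 56 were marked (14 genes in 4 groups each, which share libraries, the genotype groups holding both runs). Gata6 was marked in knockout replicate 5, at 14.4 CPM, both among the knockout libraries and among the run1 libraries. Sox7 was marked in knockout replicate 4, at 8.56 CPM, among the knockout libraries. Pdgfra was marked in knockout replicate 2, at 5.13 CPM, among the knockout libraries. Among run1 libraries, knockout replicate 4 was marked for Col4a1 (72.3 CPM) and Col4a2 (36.5 CPM), and knockout replicate 5 for Nid1 (153 CPM).

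Lamb1 was marked because every RGM knockout library lay below both RGM wild-type libraries while every run1 knockout library lay above both run1 wild-type libraries. The difference of the knockout effect, RGM minus run1, was -0.588 on the log2 scale, with an unadjusted p of 0.041 and an adjusted p of 1.00 in edgeR.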

How the results depend on the processing

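The number of genes of the set called for knockout against wild type was 0 under every alternative run, over all libraries, within RGM and within run1, except for Gata6 where the filter was dropped and 1 library left out together. Gata6 then passed within run1 without knockout replicate 3 (2.64, adjusted p 0.00099) or 4 (2.44, adjusted p 0.0020), and over all libraries as given above. Dab2 and Lamb1 were called higher in RGM under every alternative run. Over all genes, the 4 calls for knockout against wild type became 7 with DESeq2, 35 without the low-count filter and 2 without the run term, and 2 to 4 when 1 library was left out. Within RGM the 0 calls became 2 with DESeq2, 9 in a fit to RGM libraries alone and 7 without the filter, and 0 to 1 when 1 library was left out. Within run1 the 2 calls became 4 with DESeq2, 1 in a fit to run1 libraries alone and 46 without the filter, and 0 to 8 when 1 library was left out. The difference of the knockout effect had 0 calls, and 1 without the filter. Between lines the 5732 calls (2806 higher, 2926 lower) became 3160 (1595 and 1565) with knockout libraries only and 3081 (1524 and 1557) with wild-type libraries only. The 3 calls in the set became 5 without the filter, and were 2 to 4 when 1 library was left out.

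Replicate numbers shared between genotypes were not used to pair the samples in the main fit, and the values do not settle whether they pair. The correlation of deviations of same-numbered libraries was -0.0768 for numbers 1 and 2, which is a single comparison. It was positive in run1, at 0.303 for number 3 and 0.346 for number 4. Run1 has 2 wild-type libraries, whose deviations mirror each other, so these values are not separate. With the replicate number as a block the calls for knockout against wild type were 6 over all libraries and 5 in RGM alone, with 0 in the set in both. Gzf1 was then at -1.59 (adjusted p 0.027 in edgeR) and Gata4 at -0.34.

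Some differences changed sign, and the cause was not tested. Except for the Gata6 line difference, none of them passed the threshold under any alternative run. Without the run term the knockout log2 fold changes of Col4a2, Dab2 and Lamb1 were -0.0099, -0.00081 and -0.068. With wild-type libraries only the line differences of Col4a1, Gata4 and Gata6 were 0.00020, -0.24 and 0.28. Nid1 between lines was -0.064 with knockout libraries only and -0.026 without the filter. Without both replicate 4 libraries the line differences were 0.015 for Col4a1, 0.061 for Lamc1, -0.066 for Nid1 and -0.045 for Sparc, and the knockout differences -0.15 for Col4a2 and -0.033 for Lamb1.
When 1 library was left out, the ranges that changed sign were -0.24 to 0.010 for Col4a1, -0.13 to 0.42 for Gata4, -0.056 to 0.14 for Nid1 and -0.011 to 0.15 for Sparc between lines. For knockout against wild type they were -0.13 to 0.22 for Col4a2, -0.29 to 0.35 for Gata4, -0.49 to 0.17 for Lama1, -0.047 to 0.25 for Lamc1 and, without the filter, -1.72 to 0.34 for Sox7. Within RGM they were -0.11 to 0.40 for Dab2, -0.18 to 0.65 for Pdgfra and, without the filter, -0.33 to 0.58 for Gata6.
A minimum count of 30 left no value for Gata4 and Pdgfra. The low counts of Gata4, Gata6, Sox17, Sox7 and Pdgfra limit what could be detected to large differences. For the other genes of the set a 2-fold difference between genotypes could also be missed, most of all within a run.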
